A study of Mus musculus with 120 samples.

Results

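The inflammatory cytokines of myeloid cells were followed through 10 genes in scaffold biopsies of diabetes-prone mice: Il1a, Il1b, Tnf, Osm, Il6, Il12b and Il18, which encode secreted cytokines, Il1rn and Il1r2, which encode antagonists of interleukin-1, and Il10, which encodes an anti-inflammatory cytokine. The genes were taken by symbol from a list that was set with earlier results of these data known. They are 10 of the 55487 genes that the count tables of both sequencing batches share. All 10 were found in both tables and all 10 passed the filter on low counts in the progressor and nonprogressor comparisons over time. Each biopsy was an immunological niche (IN), a microporous polycaprolactone scaffold placed under the skin of the back, in which host cells gather around the foreign material. Total RNA of the whole IN was sequenced after ribosomal RNA depletion.

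The mice were female. NOD/ShiLtJ mice, a strain that develops autoimmune diabetes, were grouped by outcome into 10 progressors, which became hyperglycemic, and 11 nonprogressors, which did not, and 5 NOR/LtJ mice, a related strain that stays free of diabetes, served as controls. Progressors gave 58 samples, taken at 6 weeks of age, at 7, 5, 3 and 1 weeks before onset, and at onset. Nonprogressors gave 33 samples labelled by age, at 6, 10, 14, 18 and 22 weeks in batch 1 and at 6 and 14 weeks in batch 2, and NOR mice gave 23 samples at the same 5 ages, all in batch 1. A further 6 nonprogressor samples, labelled by days after implant, entered no comparison. Batch 1 held 74 samples and batch 2 held 46, run on different sequencers from different cohorts of mice, except that the 8 samples taken 7 weeks before onset were all in batch 2 although 4 of them came from mice of batch 1. No mouse was without implants. Each removed IN was replaced by a new one in the same site, so age, the number of earlier surgeries and the tissue's implant history cannot be told apart, and the ages at onset were not used here because the labels do not give them.

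Interleukin-1α and interleukin-1β bind the same receptor and drive inflammatory gene expression, the receptor antagonist encoded by Il1rn occupies that receptor without signalling, and the receptor encoded by Il1r2 binds the cytokine without passing the signal on. Macrophages, monocytes and neutrophils make most of these cytokines during a foreign body response, in which macrophages settle on an implant and fibroblasts wall it off. Interleukin-1β and interleukin-18 are made as inactive precursors and are cut by caspase-1 in the inflammasome, so their transcripts do not report the active protein.

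Promoter sequences show what lies just upstream of the transcripts counted here. RefSeq promoter windows on GRCm38.p6, here the 250 bases before each annotated start, were found for 8 of the 10 members (Osm and Il10 are named only), and 4 of them are printed 5′ to 3′ on the gene's strand, with motif matches in capitals. Il1a, Il1b and Tnf are shown as agonists that rose over time in progressors, and Il1r2 as the interleukin-1 decoy that fell.
Il1a, chr2:129309973-129310222, minus strand: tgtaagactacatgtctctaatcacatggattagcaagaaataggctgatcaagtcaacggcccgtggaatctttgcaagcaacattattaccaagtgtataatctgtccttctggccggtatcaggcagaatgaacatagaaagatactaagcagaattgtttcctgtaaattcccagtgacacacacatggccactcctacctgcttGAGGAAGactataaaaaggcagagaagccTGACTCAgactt
Il1b, chr2:129371140-129371389, minus strand: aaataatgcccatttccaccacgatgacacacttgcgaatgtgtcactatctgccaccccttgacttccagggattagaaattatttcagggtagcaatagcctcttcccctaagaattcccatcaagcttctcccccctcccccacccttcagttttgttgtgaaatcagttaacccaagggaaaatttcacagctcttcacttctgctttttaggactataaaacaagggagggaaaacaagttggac
Tnf, chr17:35202008-35202257, minus strand: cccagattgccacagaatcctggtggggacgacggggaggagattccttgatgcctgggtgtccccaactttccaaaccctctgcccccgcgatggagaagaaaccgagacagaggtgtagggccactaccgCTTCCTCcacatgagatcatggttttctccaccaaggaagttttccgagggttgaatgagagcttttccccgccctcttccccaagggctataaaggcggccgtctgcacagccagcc
Il1r2, chr1:40085843-40086092, plus strand: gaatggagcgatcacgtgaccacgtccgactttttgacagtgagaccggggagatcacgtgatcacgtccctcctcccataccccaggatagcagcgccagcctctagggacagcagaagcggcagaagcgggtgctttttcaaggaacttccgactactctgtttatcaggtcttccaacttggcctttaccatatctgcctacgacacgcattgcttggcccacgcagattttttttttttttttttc

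The motifs searched on both strands were AP-1 (TGANTCA), C/EBP (TTGCNNAA), PU.1 (GAGGAAG) and the NF-kB consensus. In the Il1a window the capitals mark a PU.1 match 41 to 35 bases before the start and an AP-1 match 12 to 6 bases before it, and in the Tnf window they mark a PU.1 match on the opposite strand 118 to 112 bases before the start. The Il1b, Il1r2, Il18 and Il12b windows held none of these 4 motifs. The Il6 window held 1 match each to NF-kB, AP-1 and C/EBP, and an AP-1 match stood in 1 of the 3 windows of Il1rn. Among 32851 windows of the same length, 3.9% held the NF-kB motif, 6.75% AP-1, 9.56% C/EBP and 10.6% PU.1, so that these are matches of letters and not measured binding sites. For Il1r2 the RefSeq start lies inside the gene as annotated for the counts (chr1:40074079-40125231).

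Read depth was 4722396 to 56185434 counts per sample in batch 1 (median 30186412.5) and 29029239 to 43880986 in batch 2 (median 36440355.5). Values are given as CPM, the counts of a gene relative to the library's total, scaled over all 120 samples by the trimmed mean of M values (TMM), and fold changes as log2 differences from the edgeR quasi-likelihood test with Benjamini-Hochberg adjusted p over all genes tested, called at 0.05. All 9 macrophage markers, among them Adgre1, Cd68, Csf1r and Lyz2, were detected in every sample, and their summed level was 3653 to 10367 CPM. A few libraries stood apart before any comparison. The 18-week library of NOR mouse 5 had 85.7% of its counts on 1 ribosomal RNA gene, which left 1233373 counts for all others, and there Il1r2, Il18, Osm, Il6, Il10 and Il12b had 0 counts, which allows up to 3.03 CPM each. The 18-week library of NOR mouse 4 had neutrophil markers at 397 CPM, against at most 74.4 CPM elsewhere. In the 6-week library of progressor mouse 5 skeletal muscle markers summed to 19402 CPM, against a median of 241 CPM over all samples, and Il1a and Il6 had 0 counts there, which allows up to 0.190 CPM each (counting error alone). The lowest depth was that of the 18-week library of nonprogressor mouse 3. The nonprogressor libraries at 22 weeks had 12.8 to 30.5% of their counts on 1 gene, Rn7s2. In bulk RNA, fewer cells of a type and less RNA per cell cannot be told apart.

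Per kilobase of exon, the antagonist gene Il1rn had the highest level of the 10 members in every sample but 1, the 18-week sample of NOR mouse 4, where Il1b was higher. Il1rn had a median of 36.4 CPM per kb over the 120 samples, Tnf 7.78, Il1b 2.06, Il18 1.98, Osm 1.96, Il1a 0.776, Il1r2 0.694, Il10 0.313, Il12b 0.143 and Il6 0.0904. Il1rn exceeded Tnf per kb in 120 of 120 samples, and Tnf exceeded Il1b in 113. Osm was above Il1a in 117, Il10 above Il12b in 101, Il1r2 above Il10 in 99 and Il12b above Il6 in 79. The other neighbours in the order were not separated by their spread over samples, with Il1b above Il18 in 64, Il18 above Osm in 58 and Il1a above Il1r2 in 61 of 120.

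The balance between antagonist and agonist varied widely between biopsies. Per kb, the ratio of Il1rn to Il1b was 22.1 at the median in batch 1, with a range of 0.513 to 228, and was above 1 in 73 of 74 samples. In batch 2 the median ratio was 13.5, the range 2.51 to 80.4, and all 46 samples were above 1. The single sample in which Il1b exceeded its antagonist was the 18-week sample of NOR mouse 4. Il6 and Il12b, the cytokines that drive acute-phase and T helper responses, were scarce. Il6 ranged from 0 to 0.897 CPM with 7 samples at 0, and Il12b from 0 to 1.00 CPM, so that a few reads decided each value.

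**Figure D1:**
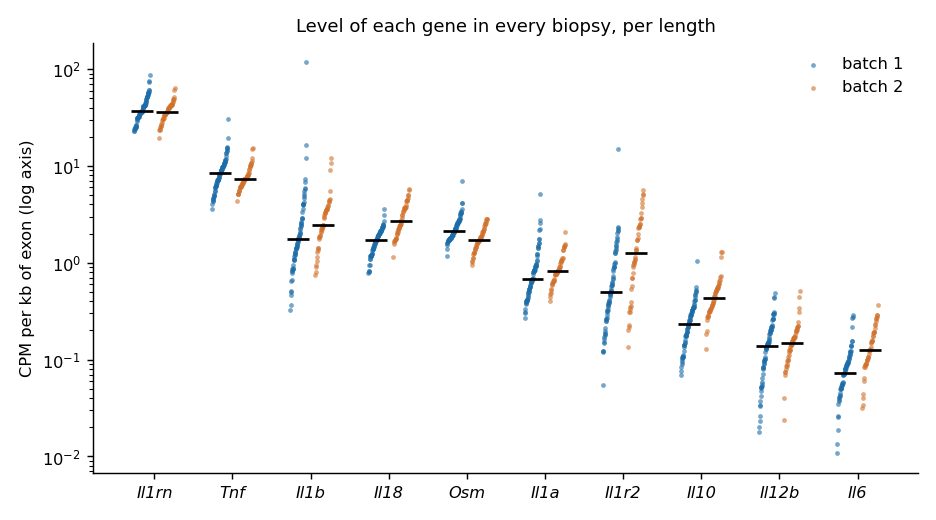
Level of each gene in every biopsy, as CPM per kb of exon on a log scale, 1 point per sample, with the median of each batch as a black bar; samples at 0 are not drawn. Il1rn has the highest median, at 36.4 CPM per kb, and 1 batch 1 sample of Il1b stands at 118 CPM per kb.

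The comparison of progressors at 5 weeks before onset to onset with the same mice at 6 weeks of age asked how the cytokines moved as the mice approached hyperglycemia. Il1b, Il1a, Tnf and Osm rose and Il1r2, Il18 and Il10 fell, while Il1rn, Il6 and Il12b did not pass the test. Of 10 members, 7 were called, where 39.4% of all 21279 genes tested were called. 4 members were called higher, beside 19.5% of all genes, and 3 lower, beside 19.9%. The median log2 change was -0.04 over the members and 0.01 over all genes tested. The block on mouse, which compares each animal with itself, left 5 members called.

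Tnf, the cytokine of activated macrophages that triggers much of the secondary inflammatory cascade, showed its rise in every mouse. In batch 1 its 6-week samples held 11.0, 11.4, 7.57, 14.2 and 7.42 CPM in mice 1 to 5, and the 20 later samples 11.0 to 31.8 CPM with a median of 15.9. In batch 2 the 6-week samples held 9.01, 12.1, 9.85, 12.2 and 12.4 CPM in mice 6 to 10, and the 20 later ones 10.1 to 25.2 CPM with a median of 13.6. The groups overlapped, with 13 of 20 later samples above every 6-week sample in each batch. In the mean of its later samples, each of the 10 mice was above its own 6-week sample. Tnf rose by 0.55 ± 0.14 (SE) on the log2 scale, or 1.47-fold (adjusted p = 0.00154), and the change was 0.73 within batch 1 (adjusted p = 0.018) and 0.39 within batch 2 (adjusted p = 0.075).

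Osm encodes oncostatin M, a cytokine of the interleukin-6 family that acts on stromal cells. Its 6-week samples held 3.83, 2.66, 3.94, 4.04 and 4.18 CPM in batch 1, and the later ones 3.49 to 9.38 CPM with a median of 4.61. In batch 2 the 6-week samples held 2.53, 3.88, 2.81, 3.76 and 3.09 CPM, and the later ones 3.30 to 6.47 CPM with a median of 4.88. At onset the mice of batch 2 held 4.40, 6.46, 6.47, 4.33 and 4.86 CPM. All 5 of those were above every 6-week sample, and so were 17 of the 20 later samples of that batch and 12 of 20 in batch 1. The share of all genes separated in this way was not counted. Osm rose by 0.52 ± 0.12, or 1.43-fold (adjusted p = 0.000306), and was higher later in 10 of 10 mice. The change was 0.44 within batch 1 (adjusted p = 0.072) and 0.60 within batch 2 (adjusted p = 0.0034).

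Il1a, which encodes the cell-associated form of interleukin-1, showed its change mostly in batch 1. The 6-week samples there held 0.788, 0.821, 0.663, 1.15 and 0 CPM, the last in the muscle-rich library of mouse 5, and the later samples held 0.739 to 3.46 CPM with a median of 1.5. Within batch 2 the 6-week samples held 1.61, 1.81, 1.51, 2.10 and 1.63 CPM and the later ones 1.02 to 4.10 CPM with a median of 1.99. In batch 1, 15 of 20 later samples were above every 6-week sample, and in batch 2 only 8 were above all and 6 below all. The pooled change was 0.66 ± 0.23, or 1.57-fold (adjusted p = 0.0193). It was 1.23 within batch 1 (adjusted p = 0.036), 0.95 there without the 6-week sample of mouse 5 (adjusted p = 0.060), and 0.22 within batch 2 (adjusted p = 0.40).

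Il1b varied widely between samples of a time. The 6-week samples held 4.97, 1.67, 1.64, 2.08 and 0.697 CPM in batch 1 and 3.49, 1.43, 3.54, 3.37 and 4.45 CPM in batch 2. The later samples ranged from 1.26 to 9.73 CPM in batch 1, with a median of 2.96, and from 1.51 to 22.8 CPM in batch 2, with a median of 6.19. The later range enclosed most 6-week values, and 4 of 20 later samples in batch 1 and 12 of 20 in batch 2 were above all of them. Il1b rose by 0.90 ± 0.32, or 1.87-fold (adjusted p = 0.0213), and was higher in 4 of 5 mice of each batch. Neither batch alone passed the test, with 0.74 in batch 1 (adjusted p = 0.19) and 1.05 in batch 2 (adjusted p = 0.089). Neutrophil markers summed to 16.9 to 29.4 CPM at 6 weeks in batch 2 and to 24.9 to 67.3 CPM from 5 weeks before onset to onset, and 2 of 7 tested neutrophil markers rose (Cxcr2 and Ltf). Csf3r, the largest part of that sum at the median, was not among them. The part of these markers in the rise of Il1b was not tested.

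The decoy receptor Il1r2 went the other way, and did so in batch 2. There the 6-week samples held 9.90, 0.434, 7.13, 8.74 and 5.58 CPM in mice 6 to 10, and the later ones 0.255 to 7.97 CPM with a median of 1.61. At onset the values were 0.640, 0.664, 1.02, 0.255 and 0.383 CPM. All 5 onset samples were below the 6-week samples of mice 6, 8, 9 and 10, and mouse 7 alone began low. In batch 1 the 6-week samples held 1.71, 2.89, 0.628, 0.553 and 0.761 CPM and the later ones 0.226 to 3.49 CPM with a median of 0.709. Il1r2 fell by 1.03 on the log2 scale (SE 0.41, adjusted p = 0.0396). The change was -1.92 within batch 2 (adjusted p = 0.00065), -2.23 there without the 6-week sample of mouse 7 (adjusted p = 2.8e-05), and -0.43 within batch 1 (adjusted p = 0.47). With mouse as a block and batch as a term the adjusted p was 0.076.

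Il18, an inducer of interferon-γ in lymphocytes, fell with a smaller spread. Within batch 2 the 6-week samples held 5.23, 2.32, 4.78, 5.87 and 5.16 CPM, and the later ones 1.19 to 3.85 CPM with a median of 2.54. All 20 later samples were below the 6-week median of 5.16 CPM, and each of the 5 mice was lower later than at 6 weeks. In batch 1 the 6-week samples held 2.31, 3.22, 2.27, 1.96 and 1.20 CPM and the later ones 0.801 to 2.77 CPM with a median of 1.88. Il18 fell by 0.60 (SE 0.16, adjusted p = 0.00255). The change was -0.83 within batch 2 (adjusted p = 0.0023) and -0.33 within batch 1 (adjusted p = 0.31).

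Il10 was close to the limit of the test. Its 6-week samples held 0.462, 0.197, 0.314, 0.255 and 0.380 CPM in batch 1 and 0.409, 0.357, 0.509, 1.52 and 1.71 CPM in batch 2. The later samples held 0.0991 to 0.679 CPM in batch 1 and 0.168 to 0.861 CPM in batch 2. The groups overlapped in both batches, and the fall in batch 2 rested on mice 9 and 10, the others being at or under 0.509 CPM from the start. Il10 fell by 0.56 (SE 0.23, adjusted p = 0.0452), by 0.86 within batch 2 (adjusted p = 0.017), and the adjusted p was 0.052 with mouse as a block and batch as a term and 0.053 without the 6-week sample of progressor mouse 5. Scaling by library size alone gave an adjusted p of 0.073 for Il10 and 0.051 for Il1r2, and testing without the filter on low counts gave 0.071 and 0.066.

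Il1rn did not pass the pooled test, with a log2 change of -0.16 ± 0.13 (adjusted p = 0.339), but its batches pointed apart. Within batch 2 the 6-week samples held 238, 333, 224, 270 and 254 CPM, and the later ones 133 to 288 CPM with a median of 192. There 17 of 20 later samples were below every 6-week sample, and the change was -0.46 (adjusted p = 0.011), or -0.37 without mouse 7 at 6 weeks (adjusted p = 0.058). In batch 1 the 6-week samples held 223, 205, 187, 286 and 174 CPM and the later ones 141 to 486 CPM, with a change of 0.18 (adjusted p = 0.54). Il6 changed by -0.49 ± 0.28 over both batches (adjusted p = 0.17) and by -0.81 within batch 2 (adjusted p = 0.047), where the onset samples held 0.107, 0.0983, 0.157, 0.227 and 0.0820 CPM. Il12b changed by 0.08 ± 0.28 (adjusted p = 0.836).

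**Figure D2:**
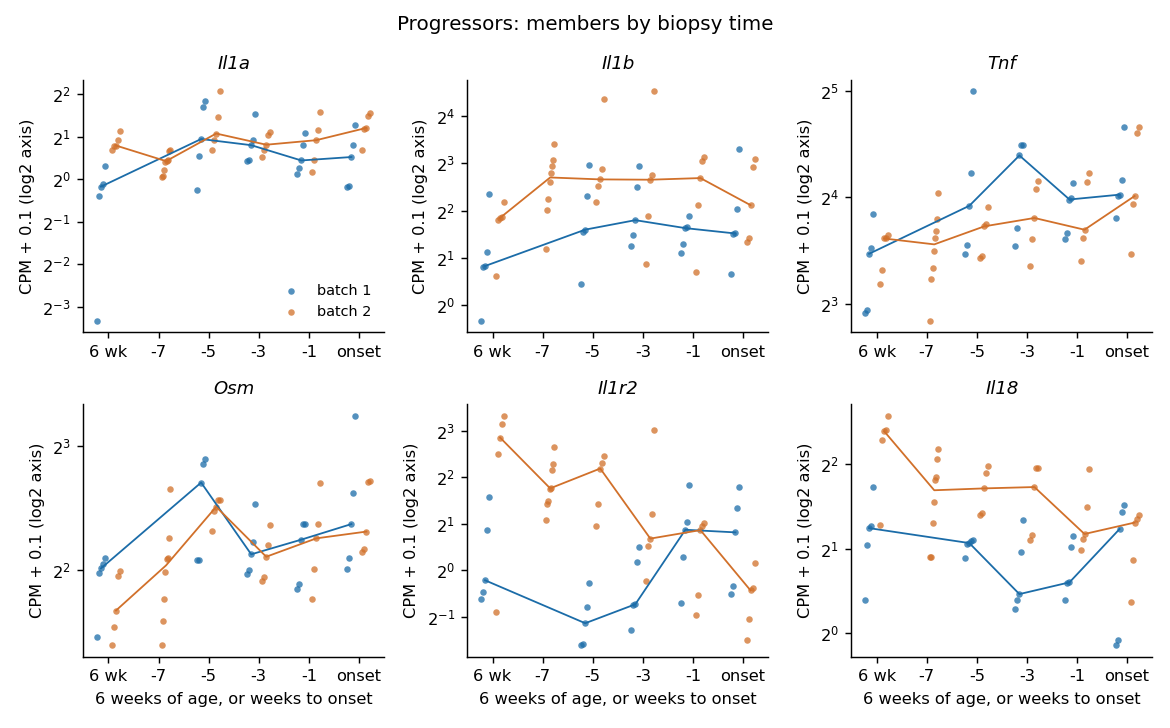
Progressor levels of 6 genes at each biopsy time, as CPM + 0.1 on a log2 scale, 1 point per biopsy, with lines through the medians of each batch. Tnf and Osm medians lie above their 6-week level at onset in both batches, and Il1r2 in batch 2 goes from a median of 7.13 CPM at 6 weeks to 0.255 to 1.02 CPM at onset.

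The batches were therefore set against each other in a test added after these values were seen. For the change after 6 weeks, the edgeR quasi-likelihood test of the difference between batches called 0 of 10 members, where 4.59% of 21708 genes were called, and DESeq2 called 0. At an unadjusted p under 0.05 there were 3 members, each with the lower change in batch 2. The difference, batch 2 minus batch 1, was -1.48 ± 0.69 for Il1r2 (adjusted p = 0.196), -0.63 ± 0.24 for Il1rn (adjusted p = 0.118) and -1.0 ± 0.45 for Il1a (adjusted p = 0.184). A summed marker list differed between the batches as well. Summed monocyte markers at 6 weeks were 684 to 1161 CPM in batch 2 progressors and 181 to 588 CPM in batch 1, and at onset 242 to 770 CPM and 314 to 656 CPM. That sum is mostly 1 gene, F13a1, with medians of 264 CPM in batch 1 and 602 CPM in batch 2. Ccr2 had medians of 17.0 and 35.0 CPM, and Ly6c2, Plac8 and Chil3 were lower still. The part of these markers in the changes was not tested. At 7 weeks before onset mice of both cohorts were sequenced in batch 2, and cohort was not compared there. At all other progressor times cohort, sequencer and batch cannot be told apart.

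All 4 fibroblast markers fell in the pooled comparison. In batch 2 they summed to 17843 to 25890 CPM at 6 weeks and to 3015 to 8487 CPM at onset. That sum is mostly 1 gene, Col1a1, and the sum in batch 1 is not given. Of 9 macrophage markers 1 rose (Cd14), of 5 monocyte markers 3 fell (Ly6c2, Plac8 and Ccr2) and 1 rose (Chil3), of 4 B cell markers 3 rose, of 5 T cell markers 2 rose, and of 3 endothelial markers 2 fell. Single genes rose among 7 dendritic (Itgax), 4 NK (Klrb1c) and 5 keratinocyte markers (Krt14), and 0 were called among 6 mast cell, 3 eosinophil, 3 adipocyte, 3 skeletal muscle and 3 erythroid markers, with 1, 1, 0, 0 and 1 at an unadjusted p under 0.05. The part of these shifts in the changes of the 10 genes was not tested.

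Over the 6 progressor times, with no order imposed, 4 members were called where 35.5% of genes were: Osm (adjusted p = 0.000464), Tnf (0.00842), Il1a (0.0145) and Il18 (0.0348). Within batch 2 the count was 7, where 27.7% of 21377 genes were called. These 6 times share the samples of the comparison above.

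The progressor times before onset were also compared with each other. From 5, 3 and 1 weeks before onset to onset against 7 weeks before onset, no member was called, where 3.87% of genes were. 3 members had an unadjusted p under 0.05, and DESeq2 called 1, Il1a. The 8 samples at 7 weeks before onset held 0.938 to 1.52 CPM of Il1a (median 1.25), below the batch 2 onset values of 2.86, 2.21, 2.69, 1.5 and 2.19 CPM with an overlap of 1 sample. The Il1a difference was 0.84 ± 0.27, or 1.79-fold (adjusted p = 0.0585), 0.74 within batch 2 (adjusted p = 0.010), and 0.84 by DESeq2 (adjusted p = 0.010). After 5 weeks before onset against that time, no member was called, where 0.385% of genes were, and the count at an unadjusted p under 0.05 was 2 (Osm at -0.27 ± 0.11 and Il1rn at -0.28 ± 0.13) and the count by DESeq2 was 0.

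Nonprogressors give a related comparison in NOD mice that did not become hyperglycemic, their later ages against 6 weeks. Their later samples are set by age and not by time to onset, and those of batch 2 come from 14 weeks of age alone. Il1b, Tnf and Osm rose and Il18 fell, 4 of 10 members, where 24.0% of 21138 genes were called. 3 members were called higher beside 9.83% of all genes, and 1 lower beside 14.1%. Over all genes 2077 were called higher and 2987 lower, a split that became 670 and 5951 when libraries were scaled by size alone and 2865 and 2809 by DESeq2. The median log2 change was -0.17 over the members and -0.03 over all genes tested. The block on mouse left 1 member called, Il18 (adjusted p = 0.034). Of the 4 members, only Il1b was called without nonprogressor mouse 1, only Il18 without mouse 2 or mouse 4, and Il18, Tnf and Osm without mouse 3.

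Il1b held 2.44, 2.04, 1.55 and 1.63 CPM in nonprogressor mice 1 to 4 of batch 1 at 6 weeks. At 14 weeks these mice held 3.45, 2.65, 4.37 and 3.91 CPM, and at 22 weeks 0.879, 7.67, 5.53 and 31.3 CPM. The 14-week samples were all above the 6-week ones, whereas at 22 weeks mouse 1 was below and mouse 4 far above the rest. How many of all genes were without overlap between 6 and 14 weeks in these mice was not counted. The 22-week libraries of mice 1 to 4 had 12.8, 19.2, 24.3 and 30.5% of their counts on Rn7s2. In these mice at 6 weeks no gene held over 4.43%. The weight of this in the values by age was not tested. Within batch 2 the 7 samples at 6 weeks held 1.99 to 6.86 CPM (median 3.73) and the 6 at 14 weeks 1.82 to 17.2 CPM (median 5.13). Il1b rose by 1.19 ± 0.43, or 2.28-fold (adjusted p = 0.0423). It was 1.29 within batch 1 (adjusted p = 0.16) and 0.67 within batch 2 (adjusted p = 0.26), and without the thin 18-week library of mouse 3 it was 1.08 (adjusted p = 0.061). The highest value, at 22 weeks in mouse 4, came with 69.8 CPM of summed neutrophil markers, against 23.6 to 69.8 CPM among the 4 samples of that age.

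Tnf in batch 1 held 11.7, 8.03, 9.64 and 5.87 CPM at 6 weeks. It held 14.6, 13.3, 11.8 and 13.4 CPM at 10 weeks and 18.5, 23.9, 17.8 and 19.2 CPM at 18 weeks. No sample of those 2 ages was below the highest 6-week sample, and at 22 weeks mouse 3 was again at 9.01 CPM. How many of all genes were likewise without overlap was not counted. Within batch 2 the range was 8.34 to 16.8 CPM at 6 weeks and 8.34 to 19.7 CPM at 14 weeks, with medians of 9.89 and 11.4 CPM. Tnf rose by 0.53 ± 0.20, or 1.45-fold (adjusted p = 0.0481), with 0.93 within batch 1 (adjusted p = 0.011) and 0.11 within batch 2 (adjusted p = 0.72). Osm rose by 0.39 ± 0.14, or 1.31-fold (adjusted p = 0.0398), and was higher later in 4 of 4 mice of batch 1 and 5 of 6 of batch 2. With mouse as a block the adjusted p was 0.13 for Il1b, 0.078 for Tnf and 0.060 for Osm.

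Il18 in the nonprogressors of batch 2 fell between 6 and 14 weeks, in a fit that called 6694 of 19665 genes. The share of all genes without overlap between these ages was not counted. The 7 samples at 6 weeks held 3.02 to 5.99 CPM (median 4.47) and the 6 at 14 weeks 1.6 to 2.53 CPM (median 1.83), and the groups did not overlap. Il18 fell by 0.53 over both batches (SE 0.17, adjusted p = 0.0201), by 1.15 within batch 2 (adjusted p = 0.00034) and by 0.29 within batch 1, where the adjusted p was 0.41. Il1r2 did not overlap between these ages either, with 3.42 to 10.8 CPM at 6 weeks and 0.590 to 2.10 CPM at 14 weeks. Its change was -2.21 within batch 2 (adjusted p = 0.00099), -0.08 within batch 1 (adjusted p = 0.94) and -0.82 ± 0.43 pooled (adjusted p = 0.167). Il1rn in batch 2 held 199 to 352 CPM at 6 weeks and 130 to 242 CPM at 14 weeks, a change of -0.63 (adjusted p = 0.006), and each of 6 mice was lower at 14 weeks. The monocyte markers of these samples summed to 751 to 1090 CPM at 6 weeks and to 156 to 693 CPM at 14 weeks, without overlap. F13a1 has by far the highest median in that sum. Over both batches 3 of 5 monocyte markers fell. In batch 1 they summed to 276 to 305 CPM at 6 weeks and 325 to 629 CPM at 14 weeks. All 4 fibroblast markers and 5 of 6 keratinocyte markers fell as well. The part of these cell types in the changes of the 10 genes was not tested.

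Over the 5 ages of the nonprogressors 4 members were called, where 34.4% of genes were: Il18 (adjusted p = 0.000803), Il1b (0.0132), Il1r2 (0.0202) and Il1a (0.035). With mouse as a block, without mouse 2 and without mouse 4, Il18 and Il1r2 were called, and without mouse 3 there were 7 members. In the added test of the change from 6 to 14 weeks between batches, 0 of 10 members were called by edgeR, where 2.94% of 21050 genes were, 4 had an unadjusted p under 0.05, and DESeq2 called 1, Il1r2. The Il1r2 difference, batch 2 minus batch 1, was -1.71 ± 0.61 (adjusted p = 0.115).

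**Figure D3:**
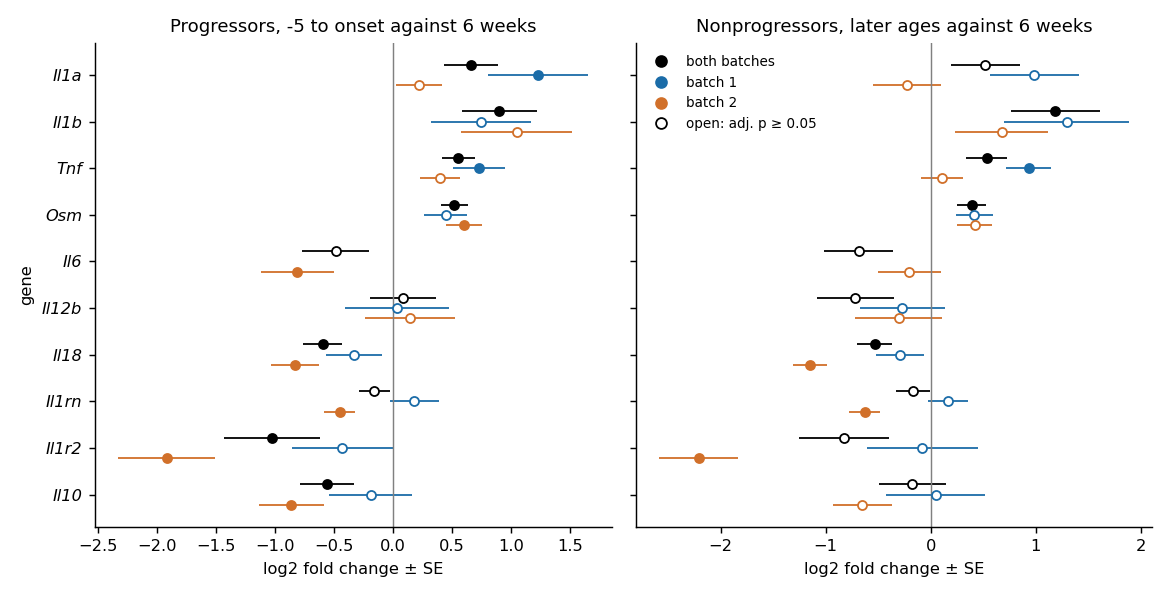
Log2 fold change ± SE of each gene after 6 weeks in progressors (left) and nonprogressors (right), over both batches and within each, where filled points have an adjusted p below 0.05 and Il6 was too low to be tested within batch 1. Il1b, Tnf and Osm are above 0 over both batches in both groups, and Il1r2 within batch 2 lies at -1.92 and -2.21.

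The change after 6 weeks was compared between progressors and nonprogressors directly, in a further test added after the values were seen. It called 0 of 10 members and 0.0% of 22566 genes (1447 genes, and 0 members, at an unadjusted p under 0.05, and 9 genes and 0 members by DESeq2). The difference, progressors minus nonprogressors, was 0.02 ± 0.22 for Tnf, -0.03 ± 0.17 for Osm, -0.20 ± 0.48 for Il1b, -0.02 ± 0.23 for Il18 and 0.63 ± 0.41 for Il12b, the largest in size among the 10. A miss of this test does not show that the groups changed alike.

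At 6 weeks of age, before any hyperglycemia, progressors were compared with nonprogressors, the question being whether outcome can be read at the first biopsy. The edgeR quasi-likelihood test called 0 of 10 members and 0.0% of 20090 genes, with 0 members and 980 genes at an unadjusted p under 0.05, and DESeq2 called 0. The log2 difference was -0.12 ± 0.29 for Il1b, 0.10 ± 0.14 for Tnf, 0.05 ± 0.40 for Il1r2 and -0.46 ± 0.30 for Il6. Late progressors, from 5 weeks before onset to onset, against nonprogressors at their later ages gave 0 of 10 members and 0.0% of 23833 genes called. There 1 member and 2218 genes had an unadjusted p under 0.05, and DESeq2 called 146 genes and 0 members. That member was Il18, with a log2 difference, progressors minus nonprogressors, of 0.29 ± 0.11 (adjusted p = 0.470). Tnf differed by 0.19 ± 0.12 (adjusted p = 0.599) and Il1b by -0.07 ± 0.31 (adjusted p = 0.959).

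In the NOR controls, the question was change with age in mice without diabetes. Age there cannot be told apart from earlier surgeries and implant history. Between the later ages and 6 weeks 0 of 9 members tested were called (Il6 was too low to test), where 0.0357% of 19628 genes were. 1 member had an unadjusted p under 0.05, Il1r2 at 2.17 ± 0.92 (adjusted p = 0.693), and DESeq2 called 0 members. Over the 5 ages without a direction, 4 of 9 members were called, where 8.23% of genes were: Il1b (adjusted p = 0.00232), Tnf (0.0101), Il1r2 (0.0185) and Il1a (0.0282). Without the 18-week sample of NOR mouse 4, an alternative added after the data were seen, Tnf (0.027) and Il1r2 (0.035) were called, and Il1b (0.10) and Il1a (0.23) were not. With mouse as a block Tnf (0.026) and Il1a (0.026) were called. Only Il1b was called without NOR mouse 2 or without mouse 5, Il1b and Tnf without mouse 1, Tnf and Il1r2 without mouse 4, and the same 4 members without mouse 3.

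The values by age show the weight of that sample. Il1b held 4.30, 3.26, 0.619 and 2.73 CPM at 6 weeks and 6.37, 11.1, 8.02, 3.56 and 9.44 CPM at 22 weeks. At 18 weeks it held 5.38, 3.11, 224 and 13.1 CPM in mice 1, 3, 4 and 5, the last from 13 counts. The 22-week samples were above the 6-week ones but for mouse 4, whose 3.56 CPM lay within them. Tnf held 7.16, 7.49, 16.3 and 8.22 CPM at 6 weeks, 15.1, 17.2, 49.7 and 15.1 CPM at 18 weeks and 12.2, 23.5, 17.0, 16.3 and 14.8 CPM at 22 weeks. Il1r2 held 0.696, 0.617, 0.103 and 0.289 CPM at 6 weeks and 2.87, 2.55, 1.55, 1.09 and 3.10 CPM at 22 weeks, and these 2 ages did not overlap. How many of all genes were without overlap between them was not counted.

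**Figure D4:**
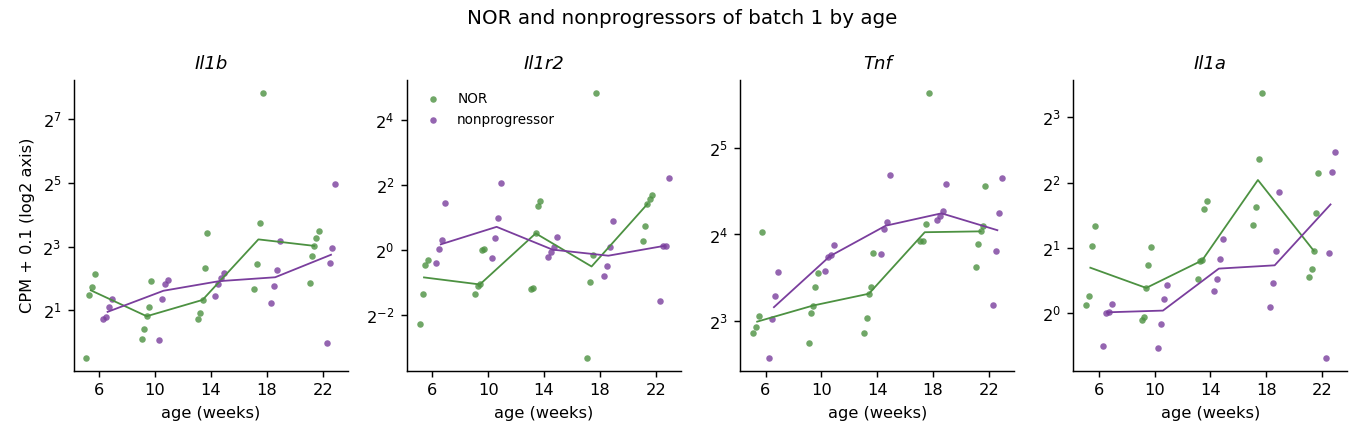
Il1b, Il1r2, Tnf and Il1a by age in NOR mice and in nonprogressors of batch 1, as CPM + 0.1 on a log2 scale, 1 point per biopsy, with lines through the medians. The 18-week NOR sample of mouse 4 is the highest point of each panel, at 224 CPM for Il1b and 28.2 CPM for Il1r2.

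In the 18-week sample of NOR mouse 4, Il1b stood at 224 CPM where every other sample was at or below 31.3 CPM. Il1r2 was at 28.2, Osm at 15.8, Il1a at 10.2 and Il1rn at 334 CPM in it. The neutrophil markers summed to 397 CPM, with Csf3r, the receptor for the neutrophil growth factor, at 254 CPM, S100a9 at 60.4, Cxcr2 at 53.0 and S100a8 at 19.9 CPM. Among the neutrophil markers of low level, Ly6g at 1.34 CPM was the highest of all samples (batch 1 median 0.0340). Mmp8 was at 5.86 against a batch 1 median of 1.22 CPM, Retnlg at 1.16 against 0.0975 and Camp at 0.424 against 0.0426, while the granule genes Ngp, at 0.282 against 0.252, and Ltf, at 0.671 against 0.815, were near their medians. The next highest neutrophil sums were 74.4, 69.8, 67.3 and 62.1 CPM, in samples with 23.1, 31.3, 22.8 and 17.2 CPM of Il1b. Across samples, with each value centred on its group within batch, log2 Il1b and log2 summed neutrophil markers had r = 0.69 over the 74 samples of batch 1, 0.57 without that sample, and 0.57 over the 46 of batch 2. The sum is mostly Csf3r, with medians of 20.3 CPM in batch 1 and 20.5 CPM in batch 2, followed by Cxcr2 at 4.32 and 3.58 CPM. Every other marker of the list had a median of at most 1.22 CPM in either batch. Several samples came from the same mouse and all share the scaling, and r is given as a description. Il1r2 had r = 0.70 with the neutrophil sum in batch 1, 0.54 without the sample, and 0.15 in batch 2. All batch 1 values of r keep the 18-week library of NOR mouse 5, most of whose counts lay on 1 ribosomal RNA gene. It had 0 counts of Il1r2 and the lowest neutrophil sum of all samples, and its weight in r was not tested.

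**Figure D5:**
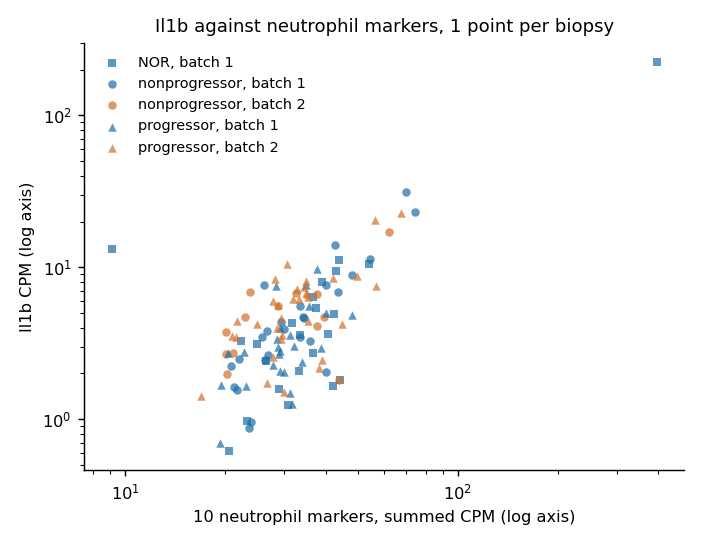
Il1b against the summed level of 10 neutrophil markers, both as CPM on log axes, 1 point per biopsy, with group by shape and batch by colour. Csf3r makes up most of that sum at the median. The 18-week sample of NOR mouse 4 lies alone at 397 CPM of markers and 224 CPM of Il1b, and the other samples run from 9.09 to 74.4 CPM of markers.

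The strains were compared with the libraries of each mouse summed, NOD against NOR within batch 1. The edgeR quasi-likelihood test called 0 of 10 members, where 8.92% of 23387 genes were called. 3 members had an unadjusted p under 0.05, and DESeq2 called 0, with no adjusted p for Il1b and Il1r2. The log2 difference, NOD minus NOR, was -1.68 ± 0.51 for Il1b (adjusted p = 0.0559) and -0.55 ± 0.21 for Il1a (adjusted p = 0.116). Without the 18-week sample of NOR mouse 4 the Il1b difference was -0.15 ± 0.25 (adjusted p = 0.78), and Tnf was then called, at 0.40 ± 0.08 higher in NOD (adjusted p = 0.0073, against 0.24 ± 0.10 with the sample, adjusted p = 0.179). Cell type markers differed in the same fit. Called lower in NOD were 4 of 9 macrophage markers (C1qb at -0.88, C1qa at -0.50, Mertk at -0.36 and Csf1r at -0.26), 3 of 6 mast cell markers (Tpsb2 at -1.54, Mcpt4 at -1.46 and Cpa3 at -1.43), 1 of 9 neutrophil markers tested (Csf3r at -0.94), Itgax (-0.52), Siglecf (-0.50) and Cd4 (-1.13), and the erythroid gene Hba-a1 was called higher (1.63). Their part in the cytokine differences was not tested. In batch 1 the highest C1qb (533 CPM), C1qa (395 CPM) and Csf3r (254 CPM) were in the 18-week sample of NOR mouse 4. Csf1r and Mertk were not at their highest there. The marker differences are not given without that sample. Among the members, the calls turned on single NOR mice. Il1b was called without NOR mouse 1 (-1.92, adjusted p = 0.0393) or mouse 2 (-1.89, adjusted p = 0.0483), Tnf without mouse 4 (0.35, adjusted p = 0.0254) and Il1a without mouse 5 (-0.71, adjusted p = 0.0312). Nonprogressors alone against NOR mice at matched ages gave 0 of 10 members called and 0 at an unadjusted p under 0.05, where 6.29% of 22975 genes were called, and DESeq2 called 0 members. Over all genes 613 were called higher and 833 lower there, or 388 and 912 with scaling by library size alone. Il1b differed by -1.65 ± 0.81 (adjusted p = 0.287). The difference between strains in their change with age called 0 of 10 members and 0.0% of 20647 genes, with 2 members (Il6 and Il1r2) and 1247 genes at an unadjusted p under 0.05 and 9 genes and 0 members by DESeq2. These comparisons share the NOR samples.

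The receptors, regulators and targets of these and related cytokines were counted as lists. In progressors after 6 weeks, 8 of 14 tested receptors of these or related cytokines were called, 4 higher and 4 lower (median log2 change 0.13). Il6ra rose by 0.60, Tnfrsf1b by 0.53, Il10ra by 0.52 and Il10rb by 0.28. Osmr fell by 0.46, Il1r1, the signalling interleukin-1 receptor, by 0.36, Tnfrsf1a by 0.21 and Il1rl2 by 0.63. Of 14 genes for processing and inhibition of these cytokines 9 rose and 0 fell (median 0.22). They included the inflammasome genes Aim2 (0.58), Nlrp3 (0.45), Pycard (0.31) and Casp1 (0.29), and Zc3h12a (0.52), Tnfaip3 (0.26) and Zfp36 (0.24), which encode brakes on cytokine mRNA or NF-kB signalling.

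Of 12 genes for signal transduction 1 rose, Irak2 (0.28), and 3 fell, among them Irak3 (-0.48) and Myd88 (-0.33), with a median of -0.08. Of 10 related cytokines 2 rose, Ltb (0.95) and Il1f9 (0.75), and 4 fell, Tnfsf11 (-1.22), Il11 (-1.16), Il33 (-0.80) and Ebi3 (-0.59). Of 11 target genes 2 rose, the lipocalin gene Lcn2 (2.39) and the chemokine Cxcl2 (0.75), and 2 fell, Saa3 (-0.92) and Bcl3 (-0.51), with a median of -0.36. All genes tested had 39.4% called and a median of 0.01. In nonprogressors after 6 weeks, with 24.0% of all genes called, the counts were 4 of 14 receptors (Il6ra 0.67, Tnfrsf1b 0.47, Il10rb 0.24 and Il1rl2 -0.49), 2 of 14 for processing and inhibition (Nlrp3 0.66 and Zc3h12a 0.56), 1 of 12 for signalling (Irak2 0.32), 2 of 10 related cytokines (Ebi3 -0.56 and Tnfsf11 -0.89) and 0 of 11 targets, of which 2 had an unadjusted p under 0.05. In NOR mice over the 5 ages, 8.23% of all genes were called. Of the lists, 8 of 11 targets were called there, among them Cxcl2, Ptgs2, Nos2 and Saa3. The counts were 3 of 14 receptors, 2 of 14 for processing and inhibition, 0 of 12 for signalling and 3 of 9 related cytokines. These counts are not given without the sample of NOR mouse 4 in which Il1b was highest. Between the strains Nlrp1b, an inflammasome sensor known to vary between strains, was 1.65 higher in NOD (log2 scale, adjusted p = 4.2e-10). Tnfrsf1b was 0.60 lower (-0.60, adjusted p = 0.00041) and Il1f9 1.73 lower (-1.73, adjusted p = 0.029). These differences, too, are not given without that sample of NOR mouse 4.

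Beyond these lists, the genes most alike in pattern to each member were ranked by the smaller of the 2 within-batch correlations of log2 CPM, centred on group, over 74 and 46 samples. Il1b was most like the neutrophil chemokine gene Cxcl2 (0.85), then Il1f9 (0.82) and Cxcl5 (0.80). Il1rn was most like Lcp1 (0.84) and Cd53 (0.82), both leukocyte genes, and Tnf like Ass1 (0.77) and Cd14 (0.73). Il18 was most like the interferon-inducible genes Ifi211 (0.75) and Ifi204 (0.69), Osm like Tnfaip3 (0.76), and Il1r2 like the chemokine gene Cxcl13 (0.74). Values were lower for the scarce members, with Stat4 at 0.59 for Il12b, Trex1 at 0.49 for Il10 and Il1rap at 0.47 for Il6. Among the members themselves, Il1a and Tnf had r = 0.61 and 0.66 in batches 1 and 2, Il1rn and Tnf 0.61 and 0.62, Il1r2 and Il18 0.70 and 0.64, and Il1b and Il1rn 0.09 and 0.04. The batch 1 values include the 18-week library of NOR mouse 5, where Il1r2, Il18, Osm, Il6, Il10 and Il12b all had 0 counts. Its weight in them was not tested. The points share mice and scaling, so that these values describe the samples and carry no test.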

How the data were processed

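The values came from 2 tables of RSEM expected counts per gene, 1 per sequencing batch, which the authors deposited already rounded to whole numbers. The submitters' processing notes name cutadapt, FastQC, STAR, RSEM and MultiQC and the build GRCm38. The annotation release and strand setting were not given in the sources used here. Both tables were joined on the 55487 genes they share. The quasi-likelihood test of edgeR 4.0.16 (R 4.3.3) was run on the counts after its default filter on low values and TMM scaling, using robust dispersion and a batch term wherever both batches entered. Adjusted p-values (Benjamini-Hochberg) cover all genes tested, and the threshold was 0.05. The strain comparison used counts summed per mouse. CPM was TMM-scaled over 120 samples, and exon lengths and gene positions came from GENCODE release M21, which matched 55227 genes. Logs of CPM used a pseudocount of 0.1.

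Mouse numbers in the labels name the same animal and therefore pair samples. Same-mouse samples had a mean correlation of deviations from group means of -0.0217 (NOR, 42 pairs), 0.00339 (nonprogressors, 46) and -0.0174 (progressors, 140). Samples of 1 mouse at several times enter the unblocked fits as separate samples.

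The 10 members, the pathway and cell type lists and the tests were chosen with earlier results of these data known. Named genes were all members, the called list genes and the 3 genes most alike to each member. Alternatives were DESeq2 1.42.0, scaling by library size alone, no filter on low counts, no batch term, within-batch fits, mouse as a replicate block, and leaving out mice or libraries. The tests between batches and between outcome groups and the fits without the 6-week samples of progressor mice 5 and 7, the 18-week sample of NOR mouse 4 and that of nonprogressor mouse 3 were added after seeing the data. Scripts were tested on simulated data.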

Additional observations from a re-analysis of the deposited data

Results flagged for a closer look

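In 230 groups of 4 to 10 samples, each gene in each group, time and batch, 19 samples lay farther from the rest than Dixon's criterion allows on the log2 scale. Chance alone flags about 1 in 20 groups. Their causes were not tested.

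Several of these samples came from the libraries described in the report. In the 6-week sample of progressor mouse 5 Il1a and Il6 were each at 0.0 CPM. In the 6-week sample of progressor mouse 7 Il1b was at 1.43 CPM (next 3.37), Il1r2 at 0.434 (next 5.58) and Il18 at 2.32 (next 4.78). In the 18-week sample of NOR mouse 4 Tnf was at 49.7 CPM (next 17.2), and the same mouse had 16.3 CPM of Tnf at 6 weeks (next 8.22), 229 CPM of Il1rn at 10 weeks (next 197) and 0.0 CPM of Il6 at 6 weeks.

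The others were single values. In progressors, Il6 was 0.47 CPM in mouse 6 at 1 week before onset, Il10 0.241 CPM in mouse 6 at 3 weeks before onset and 0.705 CPM in mouse 8 at onset, Il18 1.75 CPM in mouse 3 at 5 weeks before onset, Osm 2.66 CPM in mouse 2 at 6 weeks, and Il12b 0.384 CPM in mouse 6 at onset. In nonprogressors, Il6 was 0.897 CPM in mouse 5 at 14 weeks, Il18 0.829 CPM in mouse 2 at 14 weeks and Il12b 0.582 CPM in mouse 3 at 18 weeks. In NOR mice, Osm was 3.13 CPM in mouse 1 at 14 weeks. Outside the comparisons, Il12b held 0.851 and 0.877 CPM in both nonprogressor samples taken 31 days after implant, above the highest age-labelled nonprogressor sample of batch 1, at 0.585 CPM.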

How the results depend on the processing

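The number of members called is given first. NOD against NOR called 0, and 1 with each sample entered separately (Il1b, where samples of a mouse count as independent), 1 without the 18-week sample of NOR mouse 4 (Tnf), and 0 to 1 when each NOR mouse was left out (1 without mouse 1, 2, 4 or 5). NOR over 5 ages called 4, and 1 with scaling by library size alone, 2 with mouse as a replicate block, 2 without the 18-week sample of NOR mouse 4, and 1 to 4 when each mouse was left out. Nonprogressors at later ages against 6 weeks called 4, and 2 with library size alone, 1 without a filter on low counts, 1 within batch 1, 1 with mouse as a replicate block, and 1 to 3 when each mouse of batch 1 was left out. Nonprogressors over 5 ages called 4, and 7 without a batch term, 1 within batch 1, 2 with mouse as a replicate block, and 2 to 7 when each mouse of batch 1 was left out. Progressors after 6 weeks called 7, and 2 within batch 1, 0 within batch 1 without the 6-week sample of mouse 5, and 4 within batch 2 without that of mouse 7. Progressors over 6 times called 4, and 2 without a batch term, 1 within batch 1, 7 within batch 2, and 0 within batch 1 without the 6-week sample of mouse 5. Progressors after 7 weeks before onset called 0, and 1 by DESeq2 and 1 within batch 2. Within batch 1 that comparison could not be fitted, since no sample of that time is in it.

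Gene by gene, 1223 of 1362 values under an alternative kept their side of the threshold, 38 passed it anew and 101 lost it. No called member turned its direction. Among the 1223, 53 turned sign while called in neither fit. Where the block on mouse is not printed beside a result it changed no call. The causes were not tested, except that within-batch fits hold fewer samples.

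Counts over all genes moved by over 1.5 times in these cases. NOD against NOR called 2085, and 408 with 6-week samples alone. Nonprogressors against NOR called 1446, and 2551 by DESeq2, 209 with 6-week samples alone and as few as 885 when a mouse was left out. Late progressors against later nonprogressors called 0, and 146 by DESeq2, 8 by library size and 4 within batch 2. NOR at later ages called 7, and 46 by DESeq2, 15 by library size, 2 with the block, 12 without the 18-week sample of mouse 5, 12 without that of mouse 4 and 0 to 58 when a mouse was left out. NOR over 5 ages called 1616, and 3229 by DESeq2, 470 by library size, 2572 without the 18-week sample of mouse 5 and as few as 480 when a mouse was left out. Nonprogressors at later ages called 5064, and 9161 without a batch term, 2680 within batch 1 and as few as 2747 when a mouse was left out, and over 5 ages 7277, and 14271 by library size and 2652 within batch 1. Progressors after 6 weeks called 8390, and 5285 within batch 1 (3713 without the 6-week sample of mouse 5), and over 6 times 7544, and 3647 within batch 1 (2559 without it). After 7 weeks before onset 824 were called, and 2153 without a batch term, 1350 within batch 2 and 0 with mouse as a replicate block. After 5 weeks before onset 82 were called (12 higher, 70 lower), and 275 by DESeq2 (71 and 204), 44 without a filter, 14 without a batch term, 2 within batch 2 and 3 with the block. The change between strains with age called 0, and 9 by DESeq2. The added tests between batches called 996 and 618, and 1771 and 1600 by DESeq2.

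Scaling by library size alone moved the median of all genes by over 0.1 on the log2 scale in 3 comparisons, to -0.15 in NOR at later ages, -0.19 in nonprogressors at later ages and -0.12 in the strain difference with age. Depth limits Il6, Il10 and Il12b most, since a few counts decide their values.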

Other observations

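The 6 nonprogressor samples labelled by days after implant, 2 at each of 31, 38 and 108 days, cannot be placed by age from their labels, and their mouse numbers were not linked to those of the age-labelled mice. Il1b held 11.3 and 23.1 CPM at 31 days, 6.83 and 14.0 CPM at 38 days and 4.6 and 7.70 CPM at 108 days, against 0.879 to 31.3 CPM (median 3.37) in the 20 age-labelled nonprogressor samples of batch 1. Il1r2 held 4.14 and 4.41 CPM at 31 days, 1.40 and 1.92 CPM at 38 days and 3.18 and 3.89 CPM at 108 days, against a median of 0.971 CPM in the age-labelled samples. Il1rn held 127 and 134 CPM at 108 days, both below the age-labelled range of 136 to 334 CPM. Tnf held 9.92 to 15.9 CPM over all 6, within the age-labelled range of 5.87 to 25.7 CPM. Neutrophil markers summed to 54.2 and 74.4 CPM at 31 days and B cell markers to 31.9 and 33.7 CPM at 108 days, where every other group had at most 15.3 CPM of the latter.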
